A study of Homo sapiens with 10 samples.

Results

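Where HSF1 sits on the genome of colon cancer cells at rest, with and without the ubiquitin ligase subunit FBXW7, was described from 2 peak lists of chromatin immunoprecipitation and sequencing (ChIP-seq). Both come from HCT116, an established human colon cancer line, grown attached in McCoy's 5A medium and left without heat shock. One library is from FBXW7 KO cells and the other from WT cells, each made with 5 µg of an HSF1 antibody. The labels name no other allele or agent, and whether the KO line is 1 clone is not given in the sources used here. Peak lists hold no expression, so neither the loss of FBXW7 nor the cell type could be checked. Heat-shocked cells of the same lines (42 °C for 1 h, 2 libraries a line) are used only to see whether a region recurs. All peaks of the untreated lists were members. Overlapping peaks of the 2 lists were joined, which gave 2859 regions, against 6597 when all 6 lists of the series were joined. Of the 2859 regions, 2780 had a peak in KO only, 12 in WT only and 67 in both, so that 2.35% of the KO regions and 84.8% of the WT regions had a peak in the other line.

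HSF1 is the main activator of the heat shock response, a transcription factor. At rest much of it is held inactive by chaperones. Under stress it forms trimers that bind heat shock elements, inverted repeats of the unit nGAAn, in front of genes for chaperones, their helpers and ubiquitin. FBXW7 is the part of an SCF ubiquitin ligase that recognises phosphorylated proteins, among them HSF1, and marks them for degradation, so the KO against WT comparison asks where HSF1 is found when that route is missing.

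Gene names need a word before any result. Peaks are in hg19, and no annotation of that build was at hand. Genes were placed at hg19 regions from general knowledge of where their transcription starts lie, only where that position was known well, and a gene counts here if a peak lay within 1000 bp of that start. A gene with no peak by this rule had none listed at the position used, and no more than that can be read from it. Peaks are ordered by the authors' score within each list, rank 1 being the highest. Scores of libraries whose depth is unknown are not on one scale, so ranks are compared rather than scores, and a rank in a list of 2866 peaks (KO) does not have the meaning of the same rank in a list of 79 (WT). The heat shock lists differ in length too, with 1566 and 3257 peaks in KO replicates 1 and 2 and 225 and 131 in WT. With 1 untreated library a line there is no replicate check and no test of any difference between the lines. Intervals below are exact 95% intervals that cover counting error only.

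Peak numbers of the lines cannot be read as numbers of sites. The KO list had 36.3-fold as many peaks (2866 against 79, interval 29.0 to 46.0), and its peaks covered 626 kb against 171 kb. No peak of the WT list was narrower than 714 bp, while the median KO peak was 173 bp wide. Limited to scores of at least 100 the lists held 512 and 24 peaks. Sequencing depth and calling settings, which are not given in the sources used here, cannot be told apart from the line.

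Heat shock elements stand in the promoters of several of the genes described here, and they are shown because they are the sequence HSF1 is known to bind. A full element was taken as GAANNTTCNNGAA or its inverse TTCNNGAANNTTC, which hold 3 alternating units each of which is the other read on the opposite strand, so that both strands are covered. Promoters are RefSeq sequences of GRCh38.p14, matched by gene symbol, from 250 bases before to 50 after the start. Of 35116 promoters, 172 held this element, or 0.49%. Printed 5′ to 3′ on the gene's strand with the element in capitals, the first 5 belong to genes with a peak in both untreated lists, the next 4 to genes with a peak in KO only, and the last to HSPA6, which had no peak in either untreated list. HSPD1 and DNAJA1, also with peaks in both, held an element that is not printed.
HSP90AA1: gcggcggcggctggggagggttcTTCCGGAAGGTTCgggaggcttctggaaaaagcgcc
HSP90AB1: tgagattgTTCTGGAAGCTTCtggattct
HSPA8: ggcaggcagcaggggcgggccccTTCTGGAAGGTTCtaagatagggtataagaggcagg
PGAM5: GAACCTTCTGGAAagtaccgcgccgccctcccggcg
SERPINH1: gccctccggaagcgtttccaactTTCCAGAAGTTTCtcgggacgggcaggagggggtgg
CHORDC1: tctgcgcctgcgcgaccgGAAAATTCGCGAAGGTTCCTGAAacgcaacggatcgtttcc
DNAJB6: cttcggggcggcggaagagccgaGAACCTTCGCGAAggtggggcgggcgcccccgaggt
FBXO15: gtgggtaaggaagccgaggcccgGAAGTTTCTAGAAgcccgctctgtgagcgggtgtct
RBM23: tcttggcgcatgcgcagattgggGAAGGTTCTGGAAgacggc
HSPA6: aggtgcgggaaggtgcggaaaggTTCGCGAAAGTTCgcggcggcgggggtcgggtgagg
In GRCh38.p14 these stretches lie at chr14:102087097-102087155 (minus strand, HSP90AA1), chr6:44247823-44247851 (plus, HSP90AB1), chr11:123062156-123062214 (minus, HSPA8), chr12:132710592-132710627 (plus, PGAM5) and chr11:75562154-75562212 (plus, SERPINH1). Those of the KO-only genes lie at chr11:90223069-90223127 (minus, CHORDC1), chr7:157336850-157336908 (plus, DNAJB6), chr18:74147938-74147996 (minus, FBXO15) and chr14:22919150-22919191 (minus, RBM23), and that of HSPA6 at chr1:161524443-161524501 (plus). All other positions below are hg19 and cannot be set against these. In CHORDC1 the capitals cover overlapping elements that run from 60 to 38 bases before the start, while the elements of HSP90AA1, HSPA8, SERPINH1 and HSPA6 begin 88, 55, 76 and 74 bases before it.

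Elements were more frequent in promoters of genes with a peak in both lists. Of the 15 such genes among 13 lists described below, 14 had a promoter sequence to search, and 6 of these 14 (42.9%) held the full element. Of the 29 genes with a peak in KO only, 26 could be searched and 2 held it (7.69%), against 1 of 90 searched genes with a peak in neither list (1.11%) and 166 of all 27305 genes (0.608%). PGAM5, FBXO15 and RBM23, printed above, are outside the 13 lists and are not in the counts of listed genes. All printed sequences hold the element, so the printed set does not show how common it is in either class. A shorter match of 2 units, GAANNTTC or TTCNNGAA, was present in 9 of the 14, 13 of the 26, 13 of the 90 and 16.2% of all genes. The shorter element was thus common in promoters of KO-only genes too. Such a match describes the letters of these windows and does not mark a site that HSF1 used.

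At rest, peaks lay at 39 of 82 genes of 8 lists of chaperone and ubiquitin genes in KO cells (47.6%), and at 15 of the 82 in WT cells (18.3%). Over all 13 lists the counts were 44 of 154 genes in KO (28.6%) and 15 of 154 in WT (9.74%). These 154 genes include the 82, so they are no separate background. The share over all genes could not be given without an hg19 annotation. All 15 genes with a WT peak were among the 82 and also had a KO peak. Of the 82, 24 had a peak in KO only and none in WT only. The 4 lists of genes outside the heat shock response (proteasome subunits, other FBXW7 substrates, genes of other stress pathways and housekeeping genes) had 4 of 66 in KO and 0 of 66 in WT. The lists were chosen with earlier results of these data known, so their shares describe the lists and are no independent evidence. The plot of genes with a peak by list shows these counts.

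**Figure D1:**
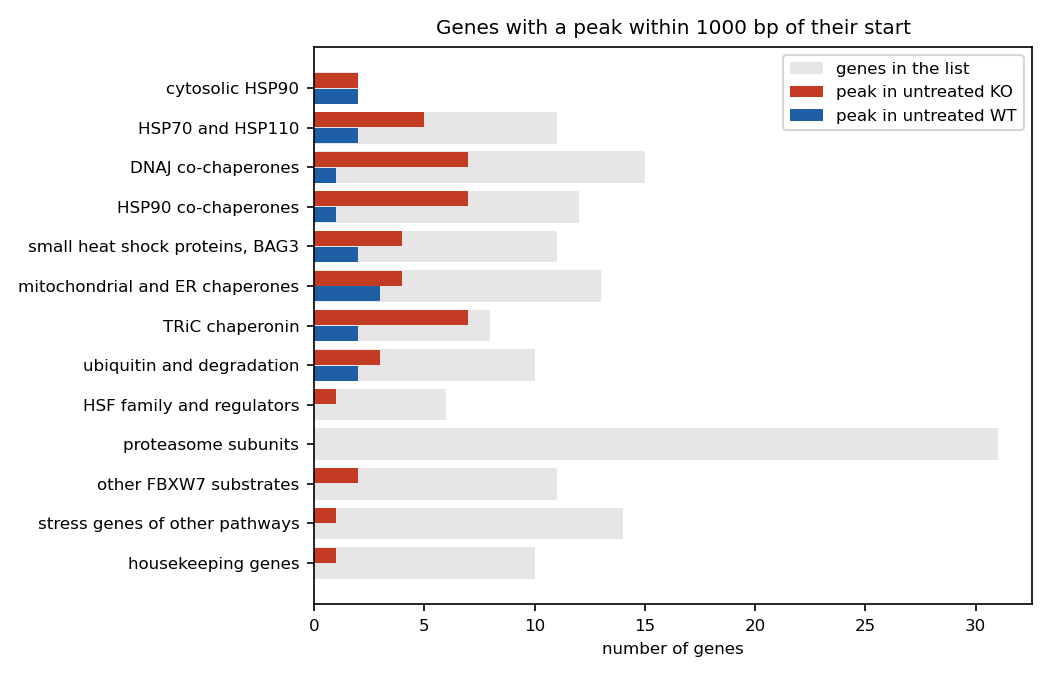
Number of genes (horizontal axis) in each of 13 gene lists, with the number that had a peak within 1000 bp of their start in the untreated KO list (red) and the untreated WT list (blue); the pale bar is the size of the list. TRiC subunits had a peak at 7 of 8 genes in KO and 2 of 8 in WT, and none of the 31 proteasome genes had one in either line.

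The cytosolic HSP90 genes had peaks in both lines. HSP90AA1, the stress-inducible HSP90, shared the highest score of the KO list (3100) and ranked 4 in WT, at chr14:102552691-102554346. HSP90AB1, the constitutive form, ranked 7 in KO and 18 in WT, at chr6:44213501-44216301. HSP90 stabilises many client proteins and restrains HSF1 in unstressed cells.

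The shared promoter of HSPD1 and HSPE1, the mitochondrial chaperonin and its lid, led both lists: rank 1 in WT and, tied at 3100, rank 1 in KO (chr2:198363695-198365679). In the list of 13 mitochondrial and endoplasmic reticulum (ER) chaperones, SERPINH1, the collagen chaperone of the ER, ranked 106 in KO and 41 in WT. HSPA9, the mitochondrial HSP70, had a KO peak only (rank 199). The list had peaks at 4 genes in KO and 3 in WT, and the main ER chaperones HSPA5 and HSP90B1 had none in either.

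HSP70 and HSP110 genes separated into a strong pair found in both lines and weaker ones found in KO. HSPH1, the HSP110 that exchanges the nucleotide of HSP70, ranked 5 in KO and 8 in WT. HSPA8, the constitutive HSP70, ranked 11 in KO and 13 in WT. HSPA1B, an inducible HSP70, had a peak in KO (rank 52, score 696) and none in WT. HSPA1B and HSPA1A are near-identical copies, so a peak at one could come from reads of the other. HSPA1A had no peak of its own in any of the 6 lists. HSPA4 and HSPA4L, relatives of HSPH1, ranked 412 and 410 in KO and were missing from WT. HSPA4L was in no other list, and HSPA4 recurred only in KO heat shock replicate 2 (rank 758). HSPA6, a strictly inducible HSP70, had no peak at rest but ranked 242 and 430 in KO heat shock replicates 1 and 2. In all, 5 of 11 genes had a KO peak and 2 a WT peak.

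Among the DNAJ proteins, which hand clients to HSP70, 7 of 15 genes had a KO peak and 1 a WT peak. That one was DNAJA1, at rank 20 in KO and 23 in WT. DNAJA4 (rank 71), DNAJB6 (103), DNAJB1 (162), DNAJB2 (225), DNAJB5 (453) and DNAJB4 (1677) were KO only. DNAJB1 is a partner of HSP70 that also acts back on HSF1, and no WT list held it.

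The HSP90 co-chaperones showed a similar division: 7 of 12 in KO and 1 in WT. PTGES3, the p23 protein that stabilises closed HSP90, was in both lists at ranks 25 and 40. STIP1, which links HSP70 to HSP90, was the highest-ranked region of KO only in the whole list (rank 13, score 1358, chr11:63952797-63953919). FKBP4 (rank 51), CHORDC1 (75), AHSA1 (160), SUGT1 (177) and PPID (205) were also KO only. AHSA1 speeds up the ATPase of HSP90.

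In TRiC, the ring-shaped chaperonin that folds actin and tubulin, 7 of the 8 subunit genes had a KO peak. TCP1 ranked 12 in KO and 11 in WT, and CCT4 ranked 28 in KO and 9 in WT. CCT5 (65), CCT7 (85), CCT6A (93), CCT3 (238) and CCT8 (322) were KO only. CCT2 had a peak in neither.

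Small heat shock proteins, the BAG family and other factors of the HSP70 cycle had 4 of 11 genes in KO and 2 in WT. HSPB1, the small heat shock protein HSP27, ranked 42 in KO and 12 in WT. ST13, a co-chaperone of HSP70, had the same KO rank (42) and ranked 14 in WT; both shared the score of 750.24 with another KO region. BAG3, which directs clients to autophagy, ranked 91 in KO and BAG2 ranked 312, with no WT peak at either.

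Of the list of ubiquitin and degradation genes, UBB, which encodes ubiquitin, was in both lines at rank 8 in KO and 7 in WT. UBQLN1, which carries ubiquitinated proteins to the proteasome, ranked 27 in KO and 72 in WT.

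Of 6 genes of the HSF family and its regulators, 1 had a peak at its start at rest: HSBP1, a protein that binds the HSF1 trimer, at rank 376 in KO. FBXW7 itself had none in either list. HSF1's own gene had no peak at its start in the untreated lists, although it ranked 36 and 185 there in KO heat shock replicates 1 and 2. Inside the gene, toward its 3′ end, 2 regions had a peak in both untreated lists (ranks 215 and 368 in KO, 30 and 42 in WT) and 3 in KO only. In the lists outside the heat shock response the KO peaks were at PGK1, a glycolytic enzyme (rank 77), MT2A, a metallothionein (304), NFE2L1 (582) and JUN (2285). PGK1 recurred in both KO heat shock replicates and MT2A in replicate 2, while NFE2L1 and JUN were in no other list. None of the 31 proteasome genes had a peak at rest.

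**Figure D2:**
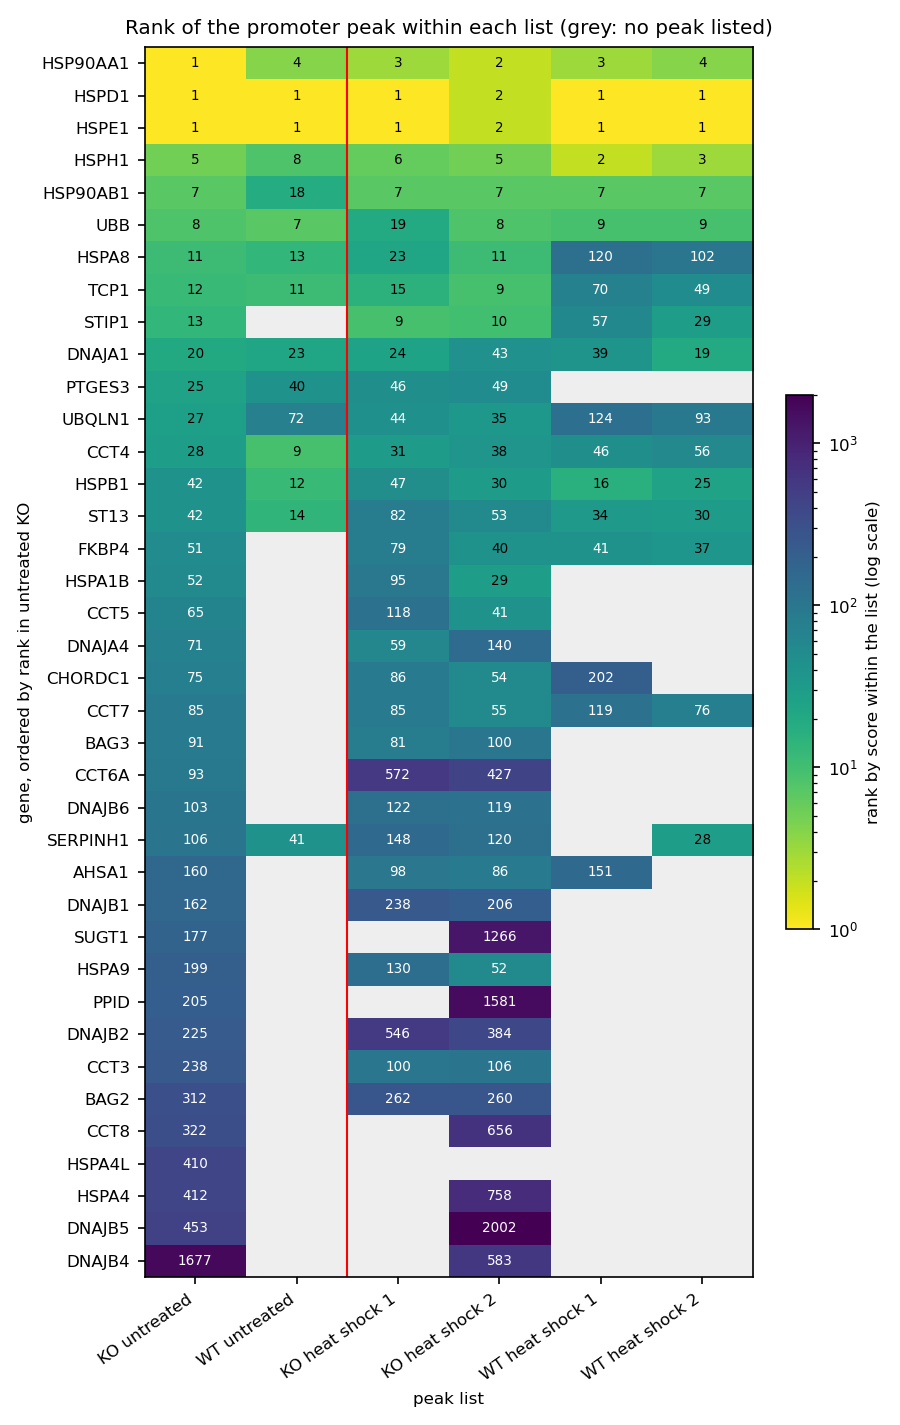
Rank by score within each of the 6 peak lists (columns, 1 library each, colour on a log scale) for the chaperone and ubiquitin genes with a peak in untreated KO cells (rows, 1 of the 39 not shown), with grey where no peak was listed. The 15 genes with an untreated WT peak are mostly in the upper part, where KO ranks are low numbers, and HSPD1 and HSPE1 had rank 1 or 2 in all 6 lists.

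The division between genes found in both lines and in KO only followed rank in the KO list. The 15 genes of both lists had a median KO rank of 12 (1 to 106), and 14 were within the first 100. The 24 genes of KO only had a median KO rank of 161 (13 to 1677), with 10 within the first 100. STIP1 was KO only at a rank where most chaperone regions were in both lists. By regions, 13 of the 15 chaperone and ubiquitin regions of KO rank 1 to 50 had a WT peak, and 0 of the 8 of rank 51 to 100. Elsewhere in the genome these counts were 21 of 34 and 11 of 41, so the chaperone and ubiquitin regions had the larger share in the first band and the smaller in the second. SERPINH1, at 106, was the 1 of 10 with a WT peak in the next band, up to rank 250, against 8 of 138 other regions.

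Whether being a chaperone or ubiquitin gene matters apart from rank was not tested. Among KO regions of rank 1 to 100, 13 of 23 at these genes had a WT peak (56.5%, interval 34.5 to 76.8). Elsewhere 32 of 75 did (42.7%, 31.3 to 54.6). These shares pool the first 2 bands above, which differ in opposite directions, and regions of 1 library a line are not replicates. Regions at these genes also had lower rank numbers (median 28 against 57). Over the whole KO list the shares were 14 of 41 (34.1%) at these genes and 53 of 2806 elsewhere (1.89%), beside 67 of all 2847 KO regions (2.35%). This wider gap comes with a median KO rank of 85 against 1453.

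At equal list length the lines differed less in gene content. Limited to its 79 highest scores, the KO list held peaks at 21 of the 82 chaperone and ubiquitin genes, against 15 in the 79 WT peaks. That short KO list and the WT list had 42 regions in common, with 35 of KO only and 37 of WT only. Among the 10 highest ranks of each list 7 regions were the same, and all 10 KO regions had a WT peak somewhere in the WT list. Conversely 67 of the 79 WT regions held a KO peak (84.8%, interval 75.0 to 91.9).

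The 67 regions of both lists were ordered alike, though loosely. Spearman's rho between KO and WT ranks was 0.63 over the 67 regions, and 0.56 over the 63 left without regions at the highest score of either list. These are descriptions across regions of 1 library each, which share the antibody and the caller. Peak centres lay a median of 64.5 bp apart, within 200 bp at 47 of 67, and the WT peak was the wider one at all 67 (medians of 1560 and 551 bp).

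**Figure D3:**
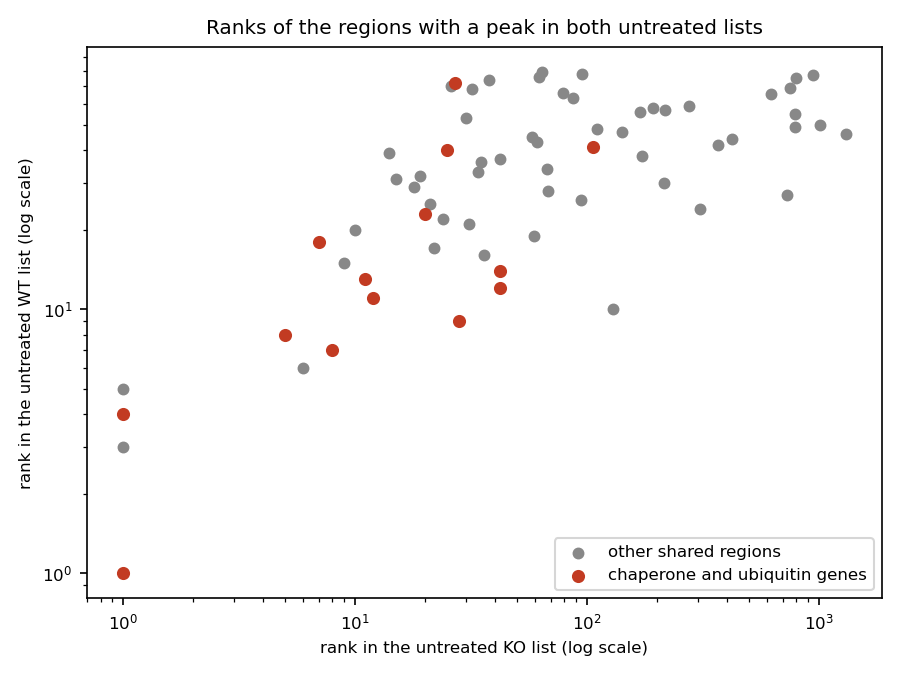
Rank in the untreated WT list against rank in the untreated KO list, both on log axes, for the 67 regions with a peak in both; each point is 1 region and red marks chaperone and ubiquitin genes. The HSPD1 and HSPE1 promoter lies at rank 1 in both lists, and the point at ranks 129 in KO and 10 in WT is the region at chr1:142535218-142539785. The axes span lists of 2866 and 79 peaks, so equal ranks are not equal places in the lists.

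Several of the strongest shared regions were not at chaperone genes. HSP90AA1, PWWP3A and HMGB1 tied with HSPD1 and HSPE1 at the top KO score of 3100. PWWP3A, a chromatin protein, ranked 3 in WT (chr19:1353853-1355364), and HMGB1, a DNA-bending protein, ranked 5 (chr13:31190971-31192725). A region within STARD13, at chr13:34116222-34117822, ranked 6 in both lists. PGAM5, a mitochondrial phosphatase, ranked 9 in KO and 15 in WT, and TRA2B, a splicing factor, ranked 10 and 20. LRIF1, a nuclear protein, ranked 24 and 22. A region at chr19:5864979-5866079, to which no gene was assigned, ranked 22 and 17.

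Other shared promoters were chosen after their values were seen. ATL3, which shapes the ER, ranked 15 in KO and 31 in WT. JMJD6, a hydroxylase that acts on splicing factors, ranked 61 and 43. SPR, sepiapterin reductase, ranked 62 and 76. MORF4L2 ranked 64 and 79, and MAT2A, which makes S-adenosylmethionine, ranked 95 and 78. After heat shock, JMJD6, MORF4L2 and MAT2A kept a listed peak in both KO replicates and had none in WT.

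By KO rank alone, 22 regions of the shared set were beyond rank 100, and not all of them ranked low in WT. They included long ones, such as chr1:234911754-234919464 (7711 bp, rank 789 in KO and 55 in WT), chr10:42354717-42360011 (5295 bp, 727 and 27) and chr1:142535218-142539785 (4568 bp, 129 and 10). The last held 5 separate KO peaks under 1 WT peak and ranked 6 in both WT heat shock lists. Repeats were not screened.

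The 2780 regions of KO only made up 97.2% of all regions, and most ranked low: 53 were within KO rank 100 and 924 within 1000, with a median of 1472.5. Their median length was 172 bp, against 1564 bp for regions of both lists, which carry the wide WT peaks. After STIP1 the leaders were ZNF473, a zinc finger protein of histone mRNA processing (rank 16), EWSR1, an RNA-binding protein (17), UBE2B, a ubiquitin-conjugating enzyme (23), and a region at chr17:62703145-62703813 with no gene assigned (29). BANF1, a DNA-bridging protein (41), ZFAND2A, a proteasome-associated zinc finger protein induced by arsenite (46), TYW3, a tRNA-modifying enzyme (48), and FBXO15, an F-box protein (50), followed. Within gene bodies, CMIP ranked 37 and GNG7 ranked 47; another region within GNG7 was in both lists (26 in KO and 70 in WT). A region at chr19:5863934-5864445 (rank 39) likewise lay next to a shared one. Regions at chr7:32982713-32983177 (33) and chr17:41400071-41401224 (49) were left without a gene.

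Further KO-only promoters, chosen after their values were seen, were those of RANGAP1, the GTPase activator of Ran (rank 56), UBE2D3, a ubiquitin-conjugating enzyme (60), CACYBP, a protein that binds ubiquitin ligase components (76), PMVK, an enzyme of the mevalonate pathway (96), GTF3C3, a subunit of the RNA polymerase III factor TFIIIC (97), RBM23 (99), and NUDC, an HSP90-linked co-chaperone (118).

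Whether KO-only regions recurred in the heat shock lists depended on their rank. Over all 2780, 603 (21.7%, interval 20.2 to 23.3) had a peak in at least 1 KO heat shock list and 119 (4.28%, 3.56 to 5.1) in at least 1 WT heat shock list, while 2150 (77.3%) were in none of the 4. Of the 15 within rank 50, all were in both heat-shocked KO replicates, 7 in WT heat shock replicate 1 and 6 in replicate 2. Of the 38 between ranks 51 and 100, 37 and 38 were in KO replicates 1 and 2, and 14 and 7 in WT replicates 1 and 2. Of the 1856 beyond rank 1000, 35 and 87 were in the KO lists and 15 and 7 in the WT lists. The untreated WT list followed a like course: it held 34 of the 49 KO regions of rank 1 to 50 (69.4%), 11 of 49 of rank 51 to 100 (22.4%) and 2 of 1858 beyond 1000 (0.108%).

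**Figure D4:**
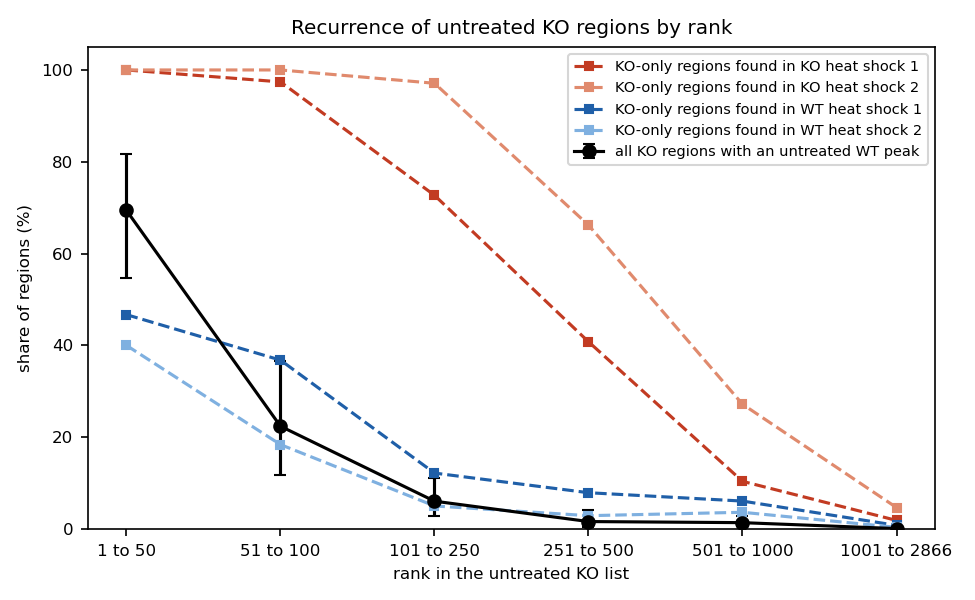
Share of regions (vertical axis, %) by rank in the untreated KO list. Black points are all KO regions with an untreated WT peak, with exact 95% intervals for counting error, and squares are KO-only regions found in each heat shock list. The black line falls from 69.4% at ranks 1 to 50 to 0.108% beyond rank 1000, and the KO heat shock lines fall later than the WT ones.

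A region of KO only at rest was therefore not always one that WT cells lacked. The 119 such regions with a WT heat shock peak had a median KO rank of 429 (13 to 2769). Of the 24 chaperone and ubiquitin genes with a KO peak only, 6 had a WT heat shock peak. After heat shock, WT replicates 1 and 2 had STIP1 at ranks 57 and 29. FKBP4 ranked 41 and 37, and CCT7 ranked 119 and 76. CHORDC1 (202) and AHSA1 (151) were in WT heat shock replicate 1 only. HSPA1B, DNAJA4, DNAJB1, BAG3, CCT5 and HSPA9 had no peak in any WT list. In KO, 17 of the 24 were listed in both heat-shocked replicates. In the other class all 15 genes were listed in both of these, and 14 in a WT one. Of all 67 regions of both lists, 89.6% were in both heat-shocked KO replicates and 51 (76.1%) in at least 1 WT replicate. PTGES3 was the exception among the 15 genes, listed in untreated WT but in no WT heat shock list.

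Only 12 regions were in the WT list alone, and none was at a gene of the lists. The highest was within KMT2A, a histone methyltransferase gene, at chr11:118342003-118345571 (WT rank 2, score 397), which ranked 126 in WT heat shock replicate 1 and was in no KO list. The rest ranked 35 or lower in WT. They were chr4:49104137-49108203 (rank 35), chr4:49120145-49123451 (51), chr17:72976883-72979139 (52), chr10:114686092-114690152 (54), 2 regions within SLC39A11, a zinc transporter gene, at chr17:70684681-70687606 (60) and chr17:70676914-70681766 (61), chr21:10717115-10723389 (61), chr17:79669398-79671446 (64), chr10:47096700-47099337 (67), chr12:163212-167266 (71) and chr10:112595898-112598132 (73). Their median length was 3438 bp. The one at chr12 and the first on chromosome 4 recurred in both heat-shocked WT replicates, 7 of the 12 were in no heat shock list, and 2 had a peak in KO heat shock replicate 1. Copy number and repeats were not screened, so whether the 12 are HSF1 sites particular to WT cells was not tested. Elsewhere within KMT2A the untreated KO list had peaks at ranks 1232 and 2757. Within SLC39A11 it had others at ranks 665, 2048, 2328 and 2565.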

How the data were processed

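ChIP-seq peak lists of 6 HSF1 libraries were used, of which the untreated KO and WT lists (1 each) carry the comparison; 4 input libraries were not analysed here. Each peak has a position, a name and a score; the score is the authors' deposited value, of unstated scale. Per the submitters' processing notes, CASAVA, Bowtie 0.12.7, MACS 1.4.2 and hg19 were used, in roles and with settings that the notes do not give. Depth is unknown. Groups came from the sample titles, which do not say that heat shock replicates are separate cultures.

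Peaks were counted as listed and joined where they overlapped by at least 1 bp (Python 3.11.15, pandas 2.3.3, numpy 2.4.6). Shares have exact Clopper-Pearson 95% intervals (scipy 1.17.1). Joining was tested on 20 simulated pairs of lists with known overlaps, set against bedtools 2.31.1, and returned the planted counts in 20. Figures used matplotlib 3.10.9.

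Genes were to be placed with an annotation of hg19. None was given, so 190 gene positions in hg19 were written from general knowledge after the peak lists had been seen, which departs from the plan. All 190 were checked against RefSeq (GRCh38.p14): each matched by name (1 by a synonym) and lay on the same chromosome, and 166 of 167 neighbouring pairs had the same order, the exception being HSPD1 and HSPE1, whose starts adjoin. That check covers name, chromosome and order only, and cannot show that a start is right to within 1000 bp. No coordinate was converted between builds. For the same reason heat shock elements were sought in RefSeq promoters, not under the peaks.

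Named in the text are all genes of 13 lists with a peak, the 15 best-ranked regions of both lists (by the worse rank) and of KO only, and every WT-only region; others are said to be chosen after their values were seen. One gene of the lists is counted but not reported by name here. Members and lists were chosen with earlier results of these data known. Alternatives tried were a score of at least 100, joining within 1000 bp, centres within 500 bp, chromosomes 1 to 22 and X, equal list lengths, windows of 300 and 5000 bp, and each heat shock replicate left out.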

Additional observations from a re-analysis of the deposited data

How the results depend on the processing

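Of 54 alternative values, 37 stayed within 1.5 times the count, within its interval or within 0.1 of the correlation, and 17 did not. With scores of at least 100, the fold of peak number was 21.3 and there were 484 regions of KO only, 1 of WT only and 23 of both. With the KO list cut to the length of the WT list, the counts were 35, 37 and 42, and 21 chaperone and ubiquitin genes had a KO peak. Joining within 1000 bp, other rules of overlap and keeping chromosomes 1 to 22 and X kept all 3 classes within 1.5 times. Windows of 300 and 5000 bp kept the gene counts within 1.5 times too, but they use the same gene positions and do not check them.

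The share of KO-only regions in a KO heat shock list was 25.2% within 1000 bp and 10.9% with a peak required in both replicates; leaving out a replicate gave 12.1 to 20.4%. In a WT heat shock list it was 1.26% with both replicates required and 1.87 to 3.67% with 1 left out. Regions of both lines were in a WT heat shock list at 55.2% with both required and 62.7 to 68.7% with 1 left out. WT-only regions were in a KO heat shock list at 0.0% with both required and 0.0 to 16.7% with 1 left out, which rests on 12 regions and on KO heat shock replicate 1. Requiring both replicates, or leaving one out, can only lower these shares. Heat shock elements within 50, 100 or 250 bp of region centres were not run, since no genome of hg19 was used. No paired analysis was possible because each untreated group has 1 library. Unknown depth limits every statement about a missing peak.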

Other observations

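NEAT1, LDHB and EIF4A2 also had KO regions at rest, and were chosen after their values were seen. NEAT1, the RNA that builds nuclear paraspeckles, had KO-only regions at its start at ranks 150 and 623. LDHB, a lactate dehydrogenase subunit, ranked 174 and EIF4A2, a translation initiation helicase, ranked 281, both in KO only. None of these had a peak in a WT list.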
